A study of Mus musculus with 7 samples.

Results

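Cytotoxic lymphocytes kill by a granule route and by a death receptor route, and 9 genes of these routes were read in mouse hearts with and without immune checkpoint inhibitor (ICI) myocarditis. They are the granzyme genes Gzma, Gzmb, Gzmk and Gzmm, the pore-forming protein perforin (Prf1), the granule membrane protein Nkg7, the granule proteoglycan serglycin (Srgn), the death ligand Fasl and its receptor Fas. They were picked by name, and all 9 were found among the 23420 gene rows of the table. The tissue was flash-frozen ventricle of untreated mice aged 3 to 6 weeks (the tissue label reads whole heart), measured by bulk sequencing of total RNA. The 4 control hearts were Ctla4+/+;Pdcd1-/- and the 3 ICI-myocarditis hearts Ctla4+/-;Pdcd1-/-. Both groups thus lacked Pdcd1, the gene of the checkpoint receptor PD-1, and differed in 1 copy of Ctla4, the gene of the checkpoint receptor CTLA-4, so no heart with intact PD-1 served as a reference, and no checkpoint drug was given. The comparison asks how the killing machinery of T cells and natural killer (NK) cells differed between the ICI-myocarditis hearts, called inflamed below, and the control hearts.

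In the granule route, perforin opens the way into the target cell for granzymes, which are serine proteases that set off cell death once inside. Serglycin holds granzymes and perforin in the granule, and Nkg7 takes part in granule release. In the other route, Fas ligand on the lymphocyte binds Fas on the target cell, and the adaptor Fadd and the protease caspase-8 start apoptosis. In a healthy heart few lymphocytes are present, whereas cytotoxic T cells are a known component of ICI myocarditis.

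The promoters of 4 members are shown because these members stand for the patterns found: Prf1 and Gzmb rose steeply, Gzmm fell, and Fas did not pass the test in either direction. Each is the RefSeq sequence on GRCm38.p6 from 250 bases before to 50 bases after the first listed start, printed 5′ to 3′ on the strand of the gene. Capitals mark matches, on either strand, to the Runx core TGTGGT, the T-box core AGGTGT and the STAT motif TTCNNNGAA.
Prf1, chr10:61297586-61297885, strand +: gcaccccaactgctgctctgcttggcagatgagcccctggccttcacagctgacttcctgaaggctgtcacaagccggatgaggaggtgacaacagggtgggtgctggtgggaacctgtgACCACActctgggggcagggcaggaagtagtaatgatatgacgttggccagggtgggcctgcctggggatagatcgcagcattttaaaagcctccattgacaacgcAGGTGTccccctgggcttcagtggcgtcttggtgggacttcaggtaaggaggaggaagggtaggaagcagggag
Gzmb, chr14:56262285-56262584, strand -: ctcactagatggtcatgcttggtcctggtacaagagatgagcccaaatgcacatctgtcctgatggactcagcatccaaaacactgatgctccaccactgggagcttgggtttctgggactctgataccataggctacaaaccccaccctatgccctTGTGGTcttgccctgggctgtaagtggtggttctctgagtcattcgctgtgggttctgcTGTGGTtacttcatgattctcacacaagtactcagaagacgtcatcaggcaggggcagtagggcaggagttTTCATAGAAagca
Gzmm, chr10:79688770-79689069, strand +: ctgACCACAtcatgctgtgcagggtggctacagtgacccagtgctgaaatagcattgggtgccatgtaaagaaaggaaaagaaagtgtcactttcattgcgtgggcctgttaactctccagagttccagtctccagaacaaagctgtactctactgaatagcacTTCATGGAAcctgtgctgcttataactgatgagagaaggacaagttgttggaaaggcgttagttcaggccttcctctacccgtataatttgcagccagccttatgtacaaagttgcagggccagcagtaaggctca
Fas, chr19:34290409-34290708, strand +: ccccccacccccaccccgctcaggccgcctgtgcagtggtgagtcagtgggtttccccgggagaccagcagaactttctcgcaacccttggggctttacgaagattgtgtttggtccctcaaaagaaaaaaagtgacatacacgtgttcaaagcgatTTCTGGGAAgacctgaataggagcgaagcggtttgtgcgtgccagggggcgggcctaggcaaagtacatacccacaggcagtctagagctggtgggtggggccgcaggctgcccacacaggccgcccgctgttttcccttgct
In GENCODE M21 (GRCm38) these are protein-coding genes, Prf1 at chr10:61297833-61304680 (+ strand), Gzmb at chr14:56258838-56262260 (- strand), Gzmm at chr10:79689020-79695261 (+ strand) and Fas at chr19:34290666-34327772 (+ strand). Of the other members, Gzma lies at chr13:113093825-113100981, Gzmk at chr13:113171608-113225908, Srgn at chr10:62493833-62527451 and Fasl at chr1:161780689-161788495, all on the - strand, and Nkg7 at chr7:43437073-43438249 on the + strand. The Runx core was present in 5 of the 9 member promoters (Gzma, Gzmb, Gzmm, Prf1 and Nkg7) and in 16.8% of 32851 mouse promoters of the same length. The T-box core, bound by T-bet and Eomes, was present in 4 (Gzma, Gzmk, Prf1 and Nkg7) and in 13.7% of all promoters. The STAT motif was present in 4 (Gzmb, Gzmm, Nkg7 and Fas) and in 8.30% of all promoters. No match to one of these motifs overlapped a match to another in the member promoters. These 3 motifs were described out of 13 searched, after the values of the genes had been seen, and a match is a run of letters only.

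Each library held between 20931730 and 39037176 reads assigned to genes. Values are normalized counts: the reads of a gene over the size factor of its library. Heart muscle genes were abundant in every library, with the sum of Myh6, Tnnt2, Actc1, Ryr2 and Ttn between 2181789 and 4388142 normalized counts in controls and between 1701600 and 2648406 in ICI-myocarditis. Control 2 stood apart from the other controls. On the first principal component of all tested genes it scored 2.25, against -96.6 to -61.1 for the other controls and 58.8 to 105 for ICI-myocarditis. Its 6 T cell markers (Cd3d, Cd3e, Cd3g, Cd8a, Cd8b1 and Cd4) summed to 1287 normalized counts, where the lowest control had 98.8. Its label as a control was kept, although these values place it between the groups. Values without it are given beside some of the results that it moves.

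Of the 9 killing genes, 7 rose, 1 fell and 1 did not pass the test. The test was limma on log2(normalized count + 1) over 15236 genes, with a threshold of 0.05 on the p-value adjusted by Benjamini and Hochberg. Among all tested genes 11.7% passed upward and 4.00% downward, 15.7% in all. Every inflamed heart lay above every control for 7 members, as for 17.3% of all tested genes, and below every control for 1 member, as for 11.3%. The median log2 fold change of the members was 4.13, beside -0.02 over all tested genes. Control 2 was the highest control for 7 members, and for 35.3% of all tested genes. Prf1, Gzmb, Nkg7 and Fasl kept their calls in all 18 alternative analyses. On the recovered reads, edgeR called 6 members higher and 0 lower (10.1% and 3.47% of all genes), DESeq2 6 and 1 (14.2% and 8.40%), and limma-voom with quality weights 7 and 1 (16.4% and 10.1%). Without ICI-myocarditis 3 the number that rose dropped to 4, since Gzma, Gzmk and Srgn then missed the threshold (limma adjusted p = 0.0517, 0.0822 and 0.0753). Of 15024 genes tested in that setting, 827 rose. In whole tissue, more cells of a type and more RNA per cell cannot be told apart.

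**Figure D1:**
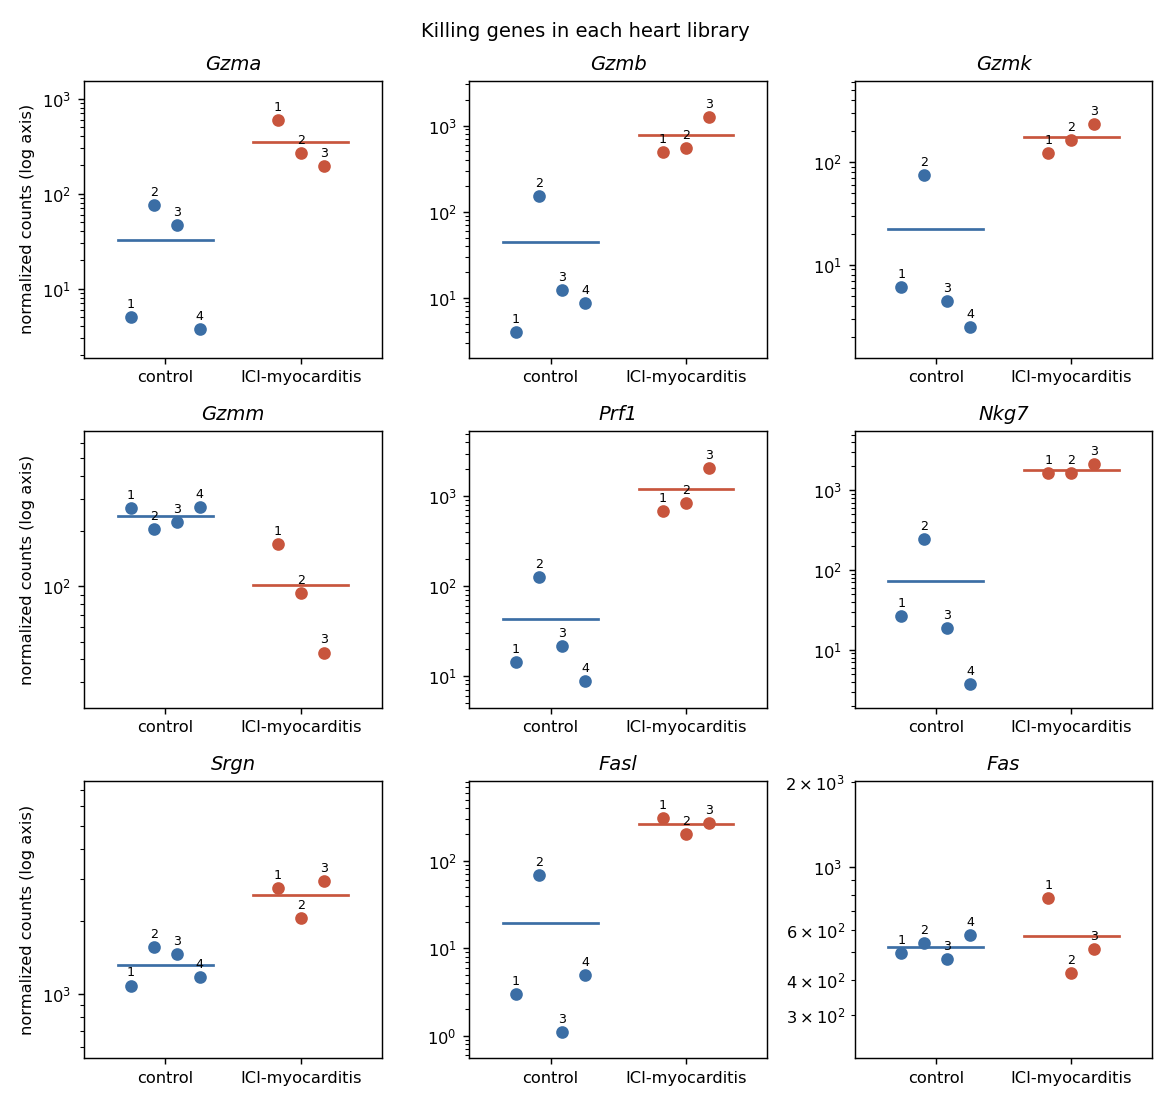
Normalized counts (log axis) of the 9 killing genes in each library, with replicate numbers beside the points and lines at the group means (4 control, 3 ICI-myocarditis). For 7 genes every ICI-myocarditis library lies above every control, for Gzmm every one lies below, and for Fas the groups overlap; control 2 is the highest control for 7 of the 9 genes.

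Perforin and Nkg7 rose in every inflamed heart. Prf1 stood at 14.1, 126, 21.2 and 8.76 normalized counts in controls 1 to 4 and at 692, 838 and 2055 in ICI-myocarditis 1 to 3. All 3 inflamed hearts were above every control, and control 2 was the highest control. Prf1 rose by 5.39 on the log2 scale (limma, SE 0.798, adjusted p = 0.00424), and by 6.16 without control 2. Nkg7 stood at 26.2, 243, 19.0 and 3.75 normalized counts in controls and at 1642, 1645 and 2125 in ICI-myocarditis. The inflamed hearts lay close together, while the controls spread over a wide range with control 2 on top. The log2 fold change of Nkg7 was 5.99 (limma, SE 1.05, adjusted p = 0.00706), and 7.03 without control 2.

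Granzymes A, B and K rose and granzyme M fell. Gzmb, whose protease cleaves caspases and Bid, stood at 4.03, 152, 12.3 and 8.76 normalized counts in controls and at 496, 542 and 1264 in ICI-myocarditis. The groups did not overlap, and control 2 stood far above the other controls. Gzmb rose by 5.30 on the log2 scale (limma, SE 1.004, adjusted p = 0.00900), and by 6.33 without control 2. Gzma, a trypsin-like granzyme of NK cells and T cells, stood at 5.04, 75.2, 46.9 and 3.75 normalized counts in controls and at 590, 268 and 195 in ICI-myocarditis. Controls 2 and 3 were both above controls 1 and 4, and all inflamed hearts were higher still. For Gzma the log2 fold change was 4.13 (limma, SE 0.973, adjusted p = 0.0214). It was 4.82 without control 2. The call was lost without control 1 (limma adjusted p = 0.0618) or any one of ICI-myocarditis 1 to 3 (limma adjusted p = 0.0731, 0.0556 and 0.0517).

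Gzmk, a granzyme typical of memory T cells, stood at 6.05, 75.2, 4.47 and 2.50 normalized counts in controls and at 121, 162 and 235 in ICI-myocarditis. The groups did not overlap, and control 2 was the highest control. Its log2 fold change was 4.05 (limma, SE 0.936, adjusted p = 0.0197), and 5.03 without control 2. On the reads recovered from the table it was 2.93 with edgeR's quasi-likelihood test (adjusted p = 0.0769) and 2.96 with DESeq2 (adjusted p = 0.0655). The call was also lost without control 1 (limma adjusted p = 0.0615), control 3 (0.0631), ICI-myocarditis 2 (0.0577) or ICI-myocarditis 3 (0.0822). The interval of Gzmk overlaps Esm1 on the other strand. The kit keeps strand, but its use in counting is not given in the sources used here.

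Gzmm, a granzyme described in NK and innate-type T cells, went the other way. It stood at 267, 205, 223 and 269 normalized counts in controls and at 169, 92.0 and 43.6 in ICI-myocarditis. The controls were even, control 2 was the lowest of them, and every inflamed heart was below all 4. Gzmm had a log2 fold change of -1.43 (limma, SE 0.411, adjusted p = 0.0448). Its direction held in all 18 alternatives, but the call held in 8 of them. It was lost without control 1 (limma adjusted p = 0.111), control 3 (0.103), control 4 (0.0812), ICI-myocarditis 2 (0.105) or ICI-myocarditis 3 (0.129, where the log2 fold change was -0.94). With edgeR's quasi-likelihood test the log2 fold change was -1.25 (adjusted p = 0.0789). The annotated start of Gzmm lies 621 bases after the end of Cdc34 on the same strand. Cdc34, which encodes a ubiquitin-conjugating enzyme, stood at 3186 ± 1405 in the control hearts (SD, n = 4), against 2587 ± 1048 normalized counts in the inflamed hearts (SD, n = 3), a log2 fold change of -0.29 (limma adjusted p = 0.669). RefSeq lists 2 starts for Gzmm, and counts per gene do not show from which the reads came. The 5 heart muscle genes had log2 fold changes from -1.27 to -0.46, with 0 of 5 past the limma threshold (1 at an unadjusted p under 0.05, and 0 with edgeR, 2 with DESeq2 and 1 with limma-voom) and Ryr2 nearest to it (limma adjusted p = 0.0594). Without control 2 Ryr2 passed, with a log2 fold change of -1.47 (limma adjusted p = 0.0180). Their part in the lower level of Gzmm was not tested.

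**Figure D2:**
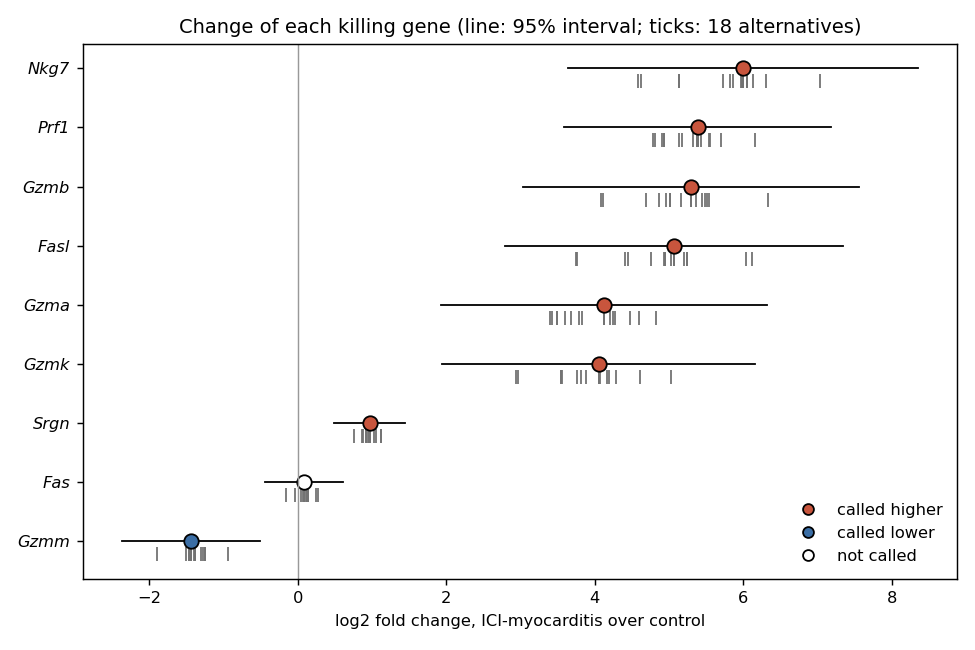
Log2 fold change of each killing gene, ICI-myocarditis over control (circle), with its 95% interval (line) and its value in each of 18 alternative analyses (ticks). Prf1, Nkg7, Fasl, Gzma, Gzmb and Gzmk lie between 4.05 and 5.99, Srgn at 0.97, Fas beside 0 and Gzmm at -1.43.

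RNA counted to the 4 granzymes was mostly Gzmm in 3 of 4 controls and mostly Gzma and Gzmb in the inflamed hearts. The exact test did not pass this difference in shares. The annotated start of Gzmm lies 621 bases after Cdc34, and counts per gene do not show from which start its reads came. What part of the reads assigned to Gzmm is granzyme M RNA was not tested. To compare genes, normalized counts were divided by the length of all annotated exons (GENCODE M21, GRCm38) and each granzyme was expressed as a percentage of Gzma, Gzmb, Gzmk and Gzmm together. Gzmm made up 93.7%, 37.2%, 72.2% and 94.0% of that sum in controls 1 to 4 and 10.1%, 7.59% and 2.33% in ICI-myocarditis. It was the leading granzyme in every control and the lowest or the next to lowest in every inflamed heart. Gzmb made up 1.45%, 28.3%, 4.07% and 3.14% in controls and 30.5%, 45.8% and 69.2% in ICI-myocarditis. The share of Gzma was 51.7%, 32.4% and 15.2% in the inflamed hearts, so the leading granzyme was Gzma in ICI-myocarditis 1 and Gzmb in the other two. The exact permutation test (two-sided, 35 arrangements) gave p = 0.0571 for the shares of Gzmm and of Gzmb (adjusted over 4 genes 0.114 for both), where the smallest p possible is 0.0286. The sum of Gzma, Gzmb and Gzmk per kilobase was 79.2 ± 106 in the control hearts (SD, n = 4), against 1008 ± 241 in the inflamed hearts (SD, n = 3).

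**Figure D3:**
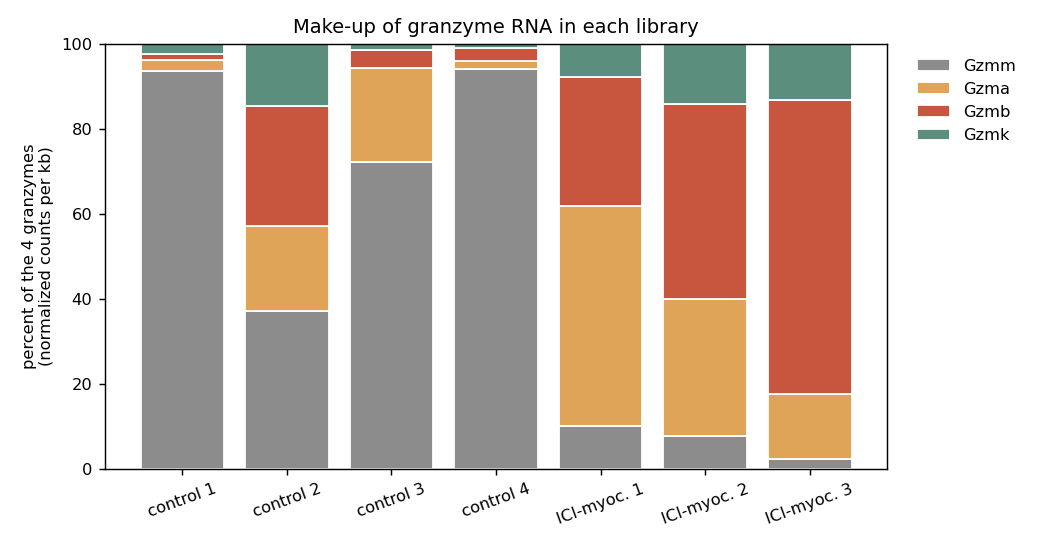
Percentage of the RNA counted to Gzmm, Gzma, Gzmb and Gzmk (normalized counts per kilobase of exon) taken by each gene in each library, so that each bar adds to 100%. Gzmm fills 37.2% to 94.0% of the control bars and 2.33% to 10.1% of the ICI-myocarditis bars.

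The inflamed hearts differed among themselves in Gzma and Gzmb. The log2 ratio of Gzmb to Gzma was -0.25 in ICI-myocarditis 1, 1.01 in ICI-myocarditis 2 and 2.69 in ICI-myocarditis 3. In controls 1 to 4 it was -0.26, 1.002, -1.85 and 1.04. The groups overlapped in this ratio. ICI-myocarditis 3 had the most Gzmb, Prf1, Gzmk, Nkg7 and Srgn, and the least Gzma and Gzmm.

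The other granzyme genes of the mouse were at or near the detection limit. Gzmc had 1.008, 1.23, 0 and 0 normalized counts in controls and 5.12, 5.80 and 2.29 in ICI-myocarditis, too few to be tested. Gzme and Gzmf each had 1 read in all 7 libraries together. Gzmd, Gzmg and Gzmn had 0 reads in all libraries, where 3 reads would correspond to between 2.17 and 3.75 normalized counts per library, counting error only. These genes lie beside Gzmb on chromosome 14 and are close in sequence, so reads may have been shared among them.

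Srgn RNA rose less than the RNA of Gzma, Gzmb, Gzmk and Prf1, whose proteins serglycin stores, while that of Gzmm fell. Srgn stood at 1081, 1565, 1465 and 1171 normalized counts in controls and at 2739, 2063 and 2936 in ICI-myocarditis. The gene was abundant in every heart, and all inflamed hearts exceeded all controls. Srgn had a log2 fold change of 0.97 (limma, SE 0.213, adjusted p = 0.0159), with a 95% interval from 0.49 to 1.44. That call was lost without ICI-myocarditis 1 (limma adjusted p = 0.0561) or 3 (limma adjusted p = 0.0753). Serglycin is also made by macrophages, mast cells, platelets and endothelium, and the markers of these cell types did not move together. All 6 macrophage markers rose, with a summed level from 9618 to 11229 normalized counts in controls and from 30256 to 55792 in ICI-myocarditis. Of 4 endothelial markers 2 fell with limma (Kdr and Emcn) and all 4 were lower at an unadjusted p under 0.05 (2 passed with edgeR, 4 with DESeq2 and 4 with limma-voom), with sums from 21273 to 55485 and from 13475 to 20406. The 7 mast cell markers summed to between 448 and 1118 and between 504 and 717, but most of that sum was Kit (283 to 970 and 377 to 676), which other cells also express. Of 5 tested 2 fell with limma, Cpa3 and Mcpt4 (1 lower with edgeR, 2 with DESeq2 and 4 with limma-voom). Ms4a2 and Fcer1a had too few reads to be tested. Ms4a2 lay between 1.12 and 2.02 in controls and was at 0 in all 3 inflamed hearts. Fcer1a lay between 0 and 2.23 in controls and between 0 and 14.3 in the inflamed hearts. None of 4 platelet markers passed with limma (2, Pf4 and Ppbp, had an unadjusted p under 0.05, both lower, and 0, 1 and 1 passed with edgeR, DESeq2 and limma-voom), with sums from 483 to 966 and from 281 to 482. The part of each cell type in the level of Srgn was not tested.

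The ligand and the receptor of the death receptor route differed. Fasl stood at 3.02, 67.8, 1.12 and 5.005 normalized counts in controls and at 311, 201 and 270 in ICI-myocarditis. All inflamed hearts were above all controls, of which 3 were at the level of a few reads. Fasl rose by 5.07 on the log2 scale (limma, SE 1.01, adjusted p = 0.0109), and by 6.12 without control 2. Fas stood at 496, 540, 472 and 574 normalized counts in controls and at 776, 423 and 512 in ICI-myocarditis. ICI-myocarditis 1 was the highest of all libraries and ICI-myocarditis 2 the lowest, so the groups overlapped. For Fas the log2 fold change was 0.09 (limma, SE 0.233, adjusted p = 0.843), with a 95% interval from -0.44 to 0.61, and it changed sign without ICI-myocarditis 1 (-0.16). The receptor was thus measured in every heart, while its ligand was near the detection limit in 3 controls. Fas overlaps Gm27818, a small RNA gene on the same strand.

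Ordered by normalized counts per kilobase, Srgn led in controls with 601 ± 105, followed by Fas with 253 ± 22.1 and Gzmm with 164 ± 21.8 (SD, n = 4). The ranges of these 3 genes over the controls did not overlap. Below them came Nkg7, Gzma, Gzmb, Prf1, Gzmk and Fasl, with means from 79.9 down to 9.94, and these neighbours overlapped in every case. In ICI-myocarditis the order was Nkg7 with 1974 ± 304, Srgn with 1175 ± 209, Gzmb with 534 ± 300, Prf1 with 463 ± 290, Gzma with 349 ± 209 and Fas with 276 ± 89.0 (SD, n = 3). Fasl, Gzmk and Gzmm closed it with 135 ± 28.6, 124 ± 41.5 and 68.9 ± 42.9. Nkg7 and Srgn were set apart from each other and from the rest by their ranges, and so was Fas from Fasl below it. The other neighbours overlapped. Gzmm was in the third place in controls and in the last in ICI-myocarditis.

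The members were then set against genes of the T cells themselves. Cd3d, Cd3e and Cd3g, which encode parts of the T cell receptor complex, rose by 5.17, 5.61 and 5.20 on the log2 scale (limma adjusted p = 0.00623, 0.00795 and 0.00407). Cd8a and Cd8b1, the coreceptor of cytotoxic T cells, rose by 5.43 and 5.85 (limma adjusted p = 0.00664 and 0.00693), and the pan-leukocyte gene Ptprc rose by 3.14 (limma adjusted p = 0.00731). For each member the mean log2 level of the 3 Cd3 genes in the same library was subtracted. Relative to Cd3, the difference between ICI-myocarditis and control was 0.06 for Prf1, -0.03 for Gzmb, -0.26 for Fasl and 0.66 for Nkg7 on the log2 scale. Relative to Ptprc, which rose less than the Cd3 genes by estimate, the same differences were 2.25, 2.16, 1.93 and 2.85. The differences relative to Cd3 also depended on the 1 added to each count. With 0.5 or 4 added instead, Fasl differed by -0.13 or -0.68 and Gzmb by -0.0057 or -0.12. Prf1 then differed by 0.051 or 0.094 and Nkg7 by 0.67 or 0.64. Against Cd3 the sign turned for Prf1 without control 2 (-0.075) or ICI-myocarditis 3 (-0.29), for Fasl without control 4 (0.023), and for Gzmb without control 2, 3 or 4 or ICI-myocarditis 1 or 2 (0.010 to 0.21). Gzmk lay from -1.57 to -0.76 relative to Cd3 in controls and from -2.93 to -2.26 in ICI-myocarditis. Gzma relative to Cd3 was -0.99, -1.03, 1.56 and -1.09 in controls and -0.65, -1.57 and -2.53 in ICI-myocarditis. Gzmm, Srgn and Fas differed by -6.76, -4.36 and -5.24 relative to Cd3.

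In the same exact permutation test, 0 of the 9 differences relative to Cd3 passed after adjustment over 9 genes, and 1 had an unadjusted p under 0.05. That gene was Gzmk (difference -1.27, exact permutation p = 0.0286, adjusted 0.129), below all controls in 3 of 3 inflamed hearts. For Gzmm, Srgn and Fas the exact permutation p was 0.0571 (adjusted 0.129), although every inflamed heart lay below every control. Against Cd8a with Cd8b1, Gzmk differed by -1.59 (exact permutation p = 0.0286, adjusted 0.129), and against Ptprc by 0.92 (exact permutation p = 0.314, adjusted 0.314), so its direction depended on the reference gene. Against Ptprc 0 of 9 differences passed after adjustment, and Prf1 and Gzmm (-4.57) had an exact permutation p of 0.0286 (adjusted 0.0735). With 9 genes and 35 splits, a pass after adjustment would have needed at least 6 genes at the smallest p.

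**Figure D4:**
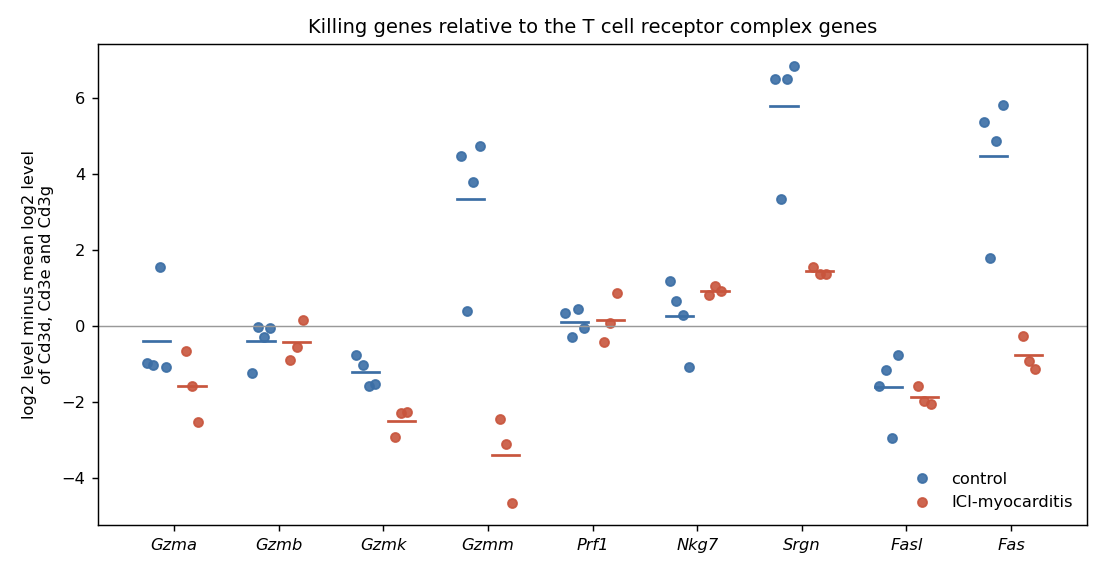
Log2 level of each killing gene minus the mean log2 level of Cd3d, Cd3e and Cd3g in the same library (points; lines are group means, 4 control and 3 ICI-myocarditis). Prf1, Gzmb, Nkg7 and Fasl overlap between the groups, Gzmk is lower in all 3 ICI-myocarditis libraries, and Gzmm, Srgn and Fas differ by -6.76, -4.36 and -5.24.

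Markers of NK cells, the other cells that hold perforin and granzymes, gave mixed values. Of 6 NK cell markers 4 were tested and 1 rose (Klre1, log2 fold change 4.15, limma adjusted p = 0.0387), while edgeR and DESeq2 called 0 of them and limma-voom 2. Klre1 lay between 0 and 29.6 normalized counts in controls and between 44.3 and 111 in ICI-myocarditis. Klrb1c lay between 2.50 and 35.8 and between 24.5 and 74.7, with a log2 fold change of 2.11 (limma adjusted p = 0.0935). Without control 2 both Klre1 (5.14, limma adjusted p = 0.00214) and Klrb1c (2.74, limma adjusted p = 0.00935) passed. Ncr1, which encodes an NK cell receptor, lay between 5.005 and 44.4 normalized counts in controls and between 18.3 and 54.2 in ICI-myocarditis (limma adjusted p = 0.395). Klra9 had a log2 fold change of -1.62 (limma adjusted p = 0.214) and was highest in control 2, at 184 normalized counts. Klra8 and Klra4 were at 0 in all 7 libraries. The summed NK cell level ran from 35.3 to 294 normalized counts in controls and from 93.2 to 288 in ICI-myocarditis, beside 98.8 to 1287 and 6208 to 9497 for the T cell markers, and its upper end in controls was mostly Klra9. The part of NK cells in the members' levels was not tested. Thymocyte markers, checked because thymus adjoins the heart, were low for Rag1, Rag2, Dntt and Ptcra in every library (at most 10.05 normalized counts). The fifth, Cd1d1, which other cells also express, lay between 65.5 and 178 in controls and between 71.8 and 102 in ICI-myocarditis.

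Genes of granule maturation and release rose in part. Of 14 genes, 7 rose and 0 fell by limma, beside 11.7% of all genes upward and 4.00% downward. The number lower was 0 at an unadjusted p under 0.05, and 0 with edgeR, DESeq2 or limma-voom. Over all genes 3.47% were lower with edgeR, 8.40% with DESeq2 and 10.1% with limma-voom. The median log2 fold change was 1.43, beside -0.02 over all tested genes. Ctsc, the protease that activates granzymes by removing their propeptide, stood at 1770 ± 529 normalized counts in the control hearts (SD, n = 4), against 6932 ± 2593 in the inflamed hearts (SD, n = 3). Ctsc rose by 1.97 on the log2 scale (limma adjusted p = 0.00600). Rab27a, a GTPase that docks granules at the membrane, rose by 1.79 on the log2 scale (limma adjusted p = 0.00869), and Stxbp2, which encodes a syntaxin-binding protein of granule fusion, rose by 2.34 (limma adjusted p = 0.0103). Unc13d, which primes granules for fusion, rose by 3.04 (limma adjusted p = 0.0152). Stx11, Cst7 and Vamp8 also rose, by 2.00, 3.80 and 0.92, while Lamp1, Ap3b1, Calr, Cd63, Vamp7, Lyst and Ctsw did not pass. Without control 2, Ctsw (log2 fold change 3.61, limma adjusted p = 0.00135) and Lyst (1.36, limma adjusted p = 0.0234) passed. Vamp8 then missed the threshold (0.82, limma adjusted p = 0.0544). In that setting 8 list genes were called, beside 2248 genes higher and 1085 lower of 15104 tested. Without ICI-myocarditis 3 the number that rose was 4, beside 827 of 15024 tested genes. Ctsc, Vamp8 and Lamp1 are also expressed by macrophages, whose markers rose as given above. The part of macrophages, or of any other cell type, in the levels of the list genes was not tested.

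With all 7 libraries, the share that rose among genes of Fas signalling and apoptosis was near that of all genes. Of 23 genes 3 rose and 0 fell by limma, beside 11.7% of all tested genes upward and 4.00% downward. The number lower was 1 at an unadjusted p under 0.05, 0 with edgeR or DESeq2 and 2 with limma-voom (Dffa and Xiap). Their median log2 fold change was 0.46. Among them were Bak1, a pore-former of the mitochondrial outer membrane (log2 fold change 1.43, limma adjusted p = 0.00363), and Bid, a granzyme B and caspase-8 substrate (2.13, limma adjusted p = 0.00705). Bid stood at 50.4, 123, 62.5 and 51.3 normalized counts in controls and at 250, 253 and 415 in ICI-myocarditis. Bak1 stood at 1135, 1000, 808 and 922 in controls and at 2207, 2680 and 2911 in ICI-myocarditis. Both genes were separated between the groups in all libraries. Fadd, the adaptor of Fas, had a log2 fold change of 0.24 (limma adjusted p = 0.606), Casp8 one of 0.74 (limma adjusted p = 0.167) and Cflar, an inhibitor of caspase-8, one of 0.31 (limma adjusted p = 0.402). Without control 2 the number called was 9 rather than 3, of which 8 were higher and 1, Dffa, was lower (log2 fold change -0.69, limma adjusted p = 0.0424). Of 15104 tested genes, 2248 were then higher and 1085 lower, so the share of the list that rose then lay above that of all genes. The list genes then higher included Casp8 (log2 fold change 1.05, limma adjusted p = 0.00615). Without ICI-myocarditis 3 the number of list genes called was 2, beside 983 of 15024 tested genes.

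Transcription factors that govern the cytotoxic programme rose in 5 of 9 tested cases, and 0 fell by limma (0 lower at an unadjusted p under 0.05, and 0 lower with edgeR, DESeq2 or limma-voom). The share over all genes was 11.7% upward and 4.00% downward. Their median log2 fold change was 2.14. Tbx21, which encodes T-bet, stood at 5.04, 48.1, 12.3 and 2.50 normalized counts in controls and at 189, 226 and 332 in ICI-myocarditis. The groups did not overlap, and Tbx21 rose by 4.49 on the log2 scale (limma adjusted p = 0.00719). The related factor gene Eomes rose by 3.85 (limma adjusted p = 0.0238), Id2 by 2.53 (limma adjusted p = 0.00766) and Tcf7, a factor of naive and memory T cells, by 2.14 (limma adjusted p = 0.00719). Runx3 rose by 2.88 (limma adjusted p = 0.0109). Prdm1, which encodes Blimp-1, had a log2 fold change of 1.31 (limma adjusted p = 0.154). Without control 2 Prdm1 passed (1.68, limma adjusted p = 0.0411), and Tbx21 and Eomes rose by 5.21 and 4.85. In that setting 6 list genes were called, beside 2248 genes higher and 1085 lower of 15104 tested. Without ICI-myocarditis 3 the number that rose was 3, beside 827 of 15024 tested genes.

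**Figure D5:**
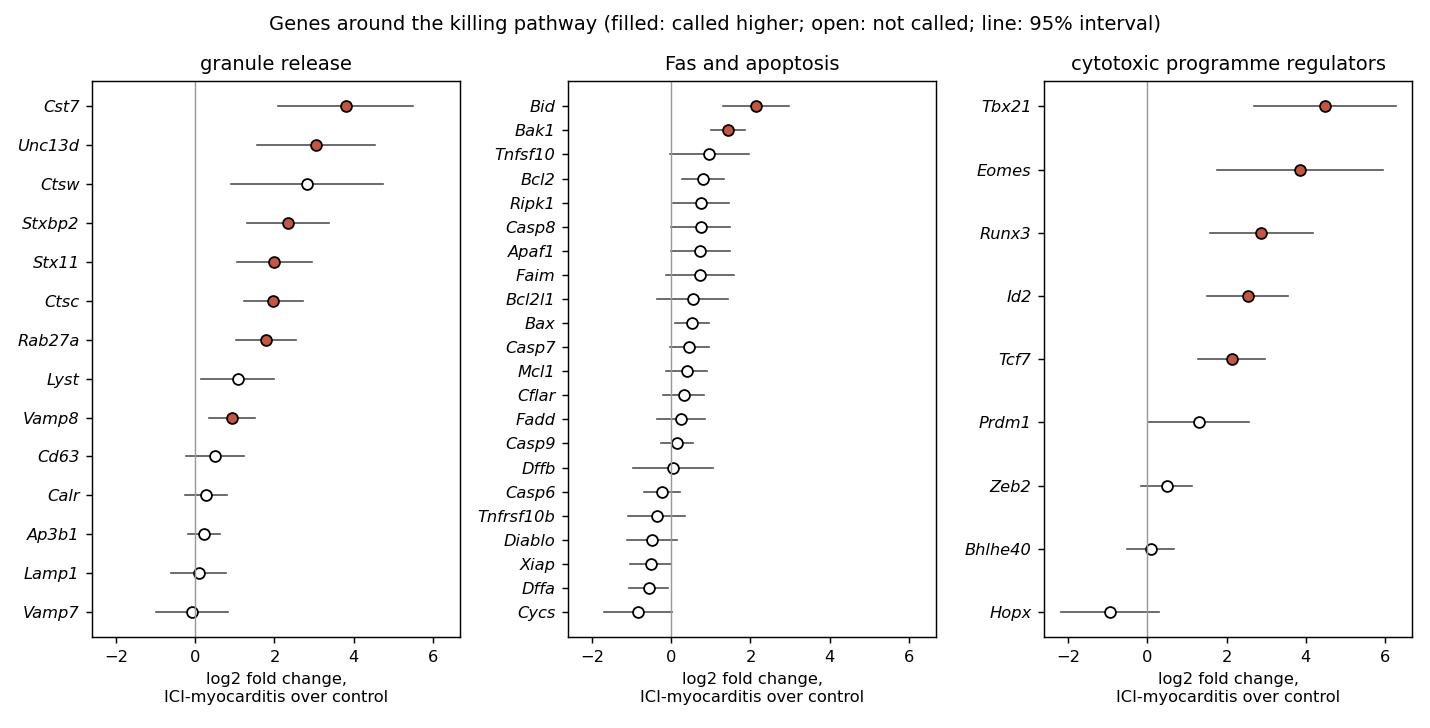
Log2 fold changes, ICI-myocarditis over control, with 95% intervals, of genes of granule release (14), Fas signalling and apoptosis (22 of the 23) and cytotoxic regulators (9). Filled circles passed the limma threshold upward (7, 2 and 5 genes drawn) and open circles did not pass.

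The genes whose profile over the 7 libraries was closest to a member were found by the root mean square difference of centred log2 levels. For Gzmb these were Slamf8 (0.24), Dnase1l3 (0.36) and Serpina3g (0.36), beside a median of 3.02 over all tested genes. Among the members, Prf1 was nearest to Gzmb (0.55) and Gzmm was farthest (3.77). For Srgn the nearest were Cenpl (0.061), Mmp23 (0.075) and D1Ertd622e (0.11), beside a median of 0.68. For Fas they were Galk1 (0.11), Cdkn2aipnl (0.12) and S100a13 (0.13), beside 0.50. For Gzmm, added after its values had been seen, they were 4930481A15Rik (0.18), 2310039L15Rik (0.19) and Golga7b (0.20), beside 0.94.

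In the authors' deposited table the log2 fold changes were 4.82 for Prf1, 3.42 for Gzma, 2.97 for Gzmk, 3.76 for Fasl, 0.97 for Srgn, 0.13 for Fas and -1.25 for Gzmm, with adjusted p-values of 6.04e-05, 0.0142, 0.0692, 0.0279, 0.000900, 0.802 and 0.0192. That authors' deposited table gave Gzmb and Nkg7 log2 fold changes of 4.12 and 4.63 and listed no p-value for either. Of the 16859 genes with an adjusted p-value in the authors' deposited table, 12.9% were below 0.05 upward and 7.34% downward.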

How the data were processed

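RNA of 7 ventricle samples (4 control, 3 ICI-myocarditis) was compared. STAR (version 2.7.3) and the build GRCm38 (mm10) are named in the submitters' processing notes; the counting program, annotation and use of strand are not given in the sources used here. The deposited library columns are a signal: reads of each gene over the size factor of the library, as the values show. All values lay within 0.05 of whole multiples of 1 step per library, which recovered the reads. In control 1 the step was 1.008, and the largest gap to a whole multiple was 0.00039 of a step. Per the file headers, the authors deposited beside these columns their own log2 fold change, a score (test statistic) and a p-value with its adjusted p-value. Of 23420 rows, 27 had names turned into dates and 4 shared a name; these held 0.143% of reads and were left out. No column of other samples was present.

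Genes reaching 10 normalized counts in 3 or more libraries entered limma (version 3.58.1, R version 4.3.3; trend and robust variance) on log2(normalized count + 1). The added 1 pulls the change of low genes toward 0, but the limma estimates are not lower bounds. For Gzma, Gzmb, Gzmk, Prf1, Nkg7 and Fasl they were above those of edgeR and DESeq2. Nkg7 had 5.99 with limma against 4.59 with edgeR and 4.62 with DESeq2. Gzmb had 5.30 against 4.08 and 4.11, and Fasl 5.07 against 3.74 and 3.76. All 9 members passed the filter. For Gzma, Gzmb, Gzmk and Fasl fewer than 3 controls reached 10, so these genes entered only through the ICI-myocarditis libraries, where they were high. This also held for Cd3d, Cd8b1, Klre1, Tbx21 and Eomes. Klrb1c and Ncr1 likewise reached 10 in fewer than 3 controls and entered only with the ICI-myocarditis libraries. Without a filter 7 members rose, beside 1834 of 19524 genes. edgeR (version 4.0.16) and DESeq2 (version 1.42.0) on recovered reads were alternatives. The fits were tested on simulated data. There a larger share of calls was wrong with DESeq2 than with limma, edgeR or limma-voom, and DESeq2 also recovered more of the changes. Far fewer genes were changed in the simulation than were called here, so it does not rank the tools for these data. Group and replicate came from the sample titles; that each is a separate mouse is from the series' design text. Named genes are the members, the other granzymes, the 3 called genes of lowest p-value in each list, a few fixed genes, and the nearest profiles; Stx11, Cst7, Vamp8, Ctsw, Runx3, Dffa, Xiap and the uncalled list members were named after their values were seen. The older name Emr1 was matched to Adgre1 through RefSeq, and Zfp683 was not matched. A gene of the Fas and apoptosis list counts in its totals but is not reported here by name. Members and lists were chosen with earlier results of these data known.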

Additional observations from a re-analysis of the deposited data

Results flagged for a closer look

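In the 4 controls, 21 quantities were looked at for 1 library lying far from the rest, judged by Dixon's critical value for the gap as a share of the range. Gzma relative to the Cd3 genes had a gap of 0.96 of the range, with control 3 above the other controls. Srgn relative to the Cd3 genes had a gap of 0.899 of the range, with control 2 below the other controls. Chance gives about 1 in 20, so 2 of 21 is near that level.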

How the results depend on the processing

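Over all tested genes 2392 passed, against 4034 with limma-voom and quality weights and 983 to 3333 when 1 library was left out (983 without ICI-myocarditis 3; 1505 without control 1, 1294 without control 3 and 1390 without ICI-myocarditis 2). The number of killing genes that rose was 7, and 4 to 7 with 1 library left out. The granule release count was 7 (4 to 8 with 1 library left out), the regulator count 5 (3 to 6), and the Fas and apoptosis count 3 (2 to 9, 11 with limma-voom, of which 2 lower, and 5 with DESeq2). Fas turned to -0.038 with limma-voom and ranged from -0.16 to 0.28 with 1 library left out. Relative to Cd3, the ranges with 1 library left out were -0.33 to 0.21 for Gzmb, -0.29 to 0.36 for Prf1 and -0.70 to 0.023 for Fasl; the exact test was not run on 6 libraries, which cannot reach 0.05. The cause of these changes was not tested. Gzmm also missed the threshold without a filter (limma adjusted p = 0.0502), with library size scaling (0.0737), which moved the median of all genes from -0.02 to 0.13, and without trend and robust variance (0.0556). Same-numbered libraries did not deviate together (correlations -0.27, -0.21 and -0.08). Differently numbered ones ran from -0.48 to 0.45, so these 3 values cannot settle whether the numbers pair samples. Number 4 occurred only among controls, so a replicate block takes control 4 out of the group contrast. The members' log2 fold changes with the block equal those without control 4, so these alternatives are not separate estimates. With the replicate block 1777 genes passed, Gzmm had -1.38 (limma adjusted p = 0.0537) and Srgn 0.91 (0.0826). The killing genes then called higher numbered 6, the granule release genes 8, the Fas and apoptosis genes 3 and the regulators 5. Depth limits Gzmk, Fasl and Gzmb, and also the Cd3 genes as a reference, with few reads in controls 1, 3 and 4.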

Other observations

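Proteases of a different granule, that of mast cells, were read as well. Cpa3, mast cell carboxypeptidase, lay between 28.8 and 45.4 normalized counts in controls and between 7.25 and 14.3 in the inflamed hearts (a log2 fold change of -1.61, limma adjusted p = 0.0257). The chymase gene Mcpt4 lay between 29.2 and 48.8 and between 6.52 and 23.5 (log2 fold change -1.60, limma adjusted p = 0.0477). The chymase gene Cma1 and the tryptase gene Tpsb2 had log2 fold changes of -0.84 and -0.75 and did not pass (limma adjusted p = 0.239 and 0.260). All 4 of these genes were lower with limma-voom, 2 of the mast cell markers with DESeq2 and 1 with edgeR. Neutrophil granule proteases were near the detection limit in every library, with Elane at most 1.23 and Mpo at most 4.09 normalized counts.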
